A study of Mus musculus with 6 samples.

Results

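The mouse mitochondrial genome is a small circle of DNA with 37 genes, and all 37 were found by name among the 47643 genes of each expression table. They are every gene whose name starts with mt-. Of these, 13 code for messenger RNAs, 2 for ribosomal RNAs and 22 for transfer RNAs. The RNA came from mouse bone marrow cells sorted as positive for CD4 and for a GFP reporter of FOXP3, that is, regulatory T cells; FOXP3 is the transcription factor of this suppressive T cell lineage. The myeloma group was 3 libraries (replicates 3, 4 and 5) from mice injected with Vk*MYC, a myeloma model (a cancer of plasma cells) in which MYC is switched on in B lineage cells. The control group was 3 libraries (replicates 1, 3 and 5) from control mice. Both groups carry the FOXP3-GFP reporter. The age and sex of the mice, the number of cells injected and the time after injection are not stated in the sources at hand.

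Mitochondrial DNA is transcribed from both strands as long precursor RNAs that run through almost the whole circle. Transfer RNA genes stand between most of the other genes, and their excision releases the messenger and ribosomal RNAs, most of which then receive short poly(A) tails. The messenger RNAs encode core subunits of the respiratory chain, which passes electrons through complexes I, III and IV, and of complex V, the ATP synthase. All other subunits, and the enzymes that copy, transcribe and process mitochondrial nucleic acid, come from nuclear genes. Mouse nuclear chromosomes also hold old copies of mitochondrial DNA, some of them nearly identical to it, and short reads from a messenger RNA can be assigned to such a copy.

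The sequences matter for the values below, because several members cannot be told from a nuclear copy. A search of all annotated transcripts found 16 nuclear genes with at least 90% identity to a mitochondrial gene over at least 100 bases. Of these, 7 lie side by side on the minus strand at chr1:24611535-24616197 and are annotated as pseudogenes, and the lowest identity among them is 99.71%. The first bases of mt-Co3, which encodes a subunit of complex IV, and of its copy Gm28437 show an identical pair, with 0 differing bases in 783 aligned. The positions are those of GENCODE M21 on GRCm38 (mm10), chrM:8607-8667 on the plus strand and chr1:24613911-24613971 on the minus strand, and both are written 5′ to 3′.

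mt-Co3: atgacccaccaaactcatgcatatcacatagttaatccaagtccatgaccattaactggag

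Gm28437: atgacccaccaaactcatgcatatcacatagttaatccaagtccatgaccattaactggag

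The copy of mt-Nd3, a complex I subunit, is Gm28438, and 1 base of 345 aligned bases differs, shown in capitals. It is the substitution T3C, counted from the first base of the mitochondrial gene, with the mitochondrial base written first. The stretches are chrM:9459-9519 (plus strand) and chr1:24613059-24613119 (minus strand).

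mt-Nd3: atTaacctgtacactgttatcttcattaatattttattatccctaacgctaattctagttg

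Gm28438: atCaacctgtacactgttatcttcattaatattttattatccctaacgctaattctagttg

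The copy of mt-Co1, the catalytic subunit of complex IV, is Gm29216. It covers only the end of the gene, 483 bases, with the single substitution A1066T. The stretches are chrM:6390-6450 (plus strand) and chr1:24616128-24616188 (minus strand).

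mt-Co1: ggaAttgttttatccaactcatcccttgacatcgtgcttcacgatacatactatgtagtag

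Gm29216: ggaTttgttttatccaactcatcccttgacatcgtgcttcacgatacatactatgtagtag

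A more diverged copy is Gm13340 on chromosome 2, which differs from mt-Co1 at 37 of 1545 aligned bases. It is shown as a contrast, with the differing bases in capitals, at chrM:5786-5846 (plus strand) and chr2:22589129-22589189 (minus strand).

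mt-Co1: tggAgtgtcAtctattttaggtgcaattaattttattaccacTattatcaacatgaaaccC

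Gm13340: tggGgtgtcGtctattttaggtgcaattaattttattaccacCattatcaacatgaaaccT

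The share of each gene's reads that the tables give to nuclear copies moved from library to library. For mt-Co3 the copies took 47.5%, 23.4% and 63.9% of the reads of gene plus copies in myeloma replicates 3, 4 and 5, against 34.5%, 47.4% and 31.4% in control replicates 1, 3 and 5. For mt-Nd3 the copies took 9.5%, 18.6% and 39.6% in the myeloma libraries, against 51.1%, 35.3% and 45.7% in the control libraries. The groups overlap for both genes, and the split sets how many reads the gene itself keeps. The copies of mt-Co2 (complex IV), mt-Atp6 (complex V) and mt-Nd4l (complex I) also took a large share. For mt-Nd4l it was 59.0%, 24.1% and 41.7% in the myeloma libraries, against 64.0%, 66.6% and 54.3% in the control libraries. The diverged copy Gm13340 held no more than 168 reads in a library. Gene values are therefore given for the gene's own reads and, where that moves them, for gene plus copies; adding the copies was chosen after the values were seen.

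**Figure D1:**
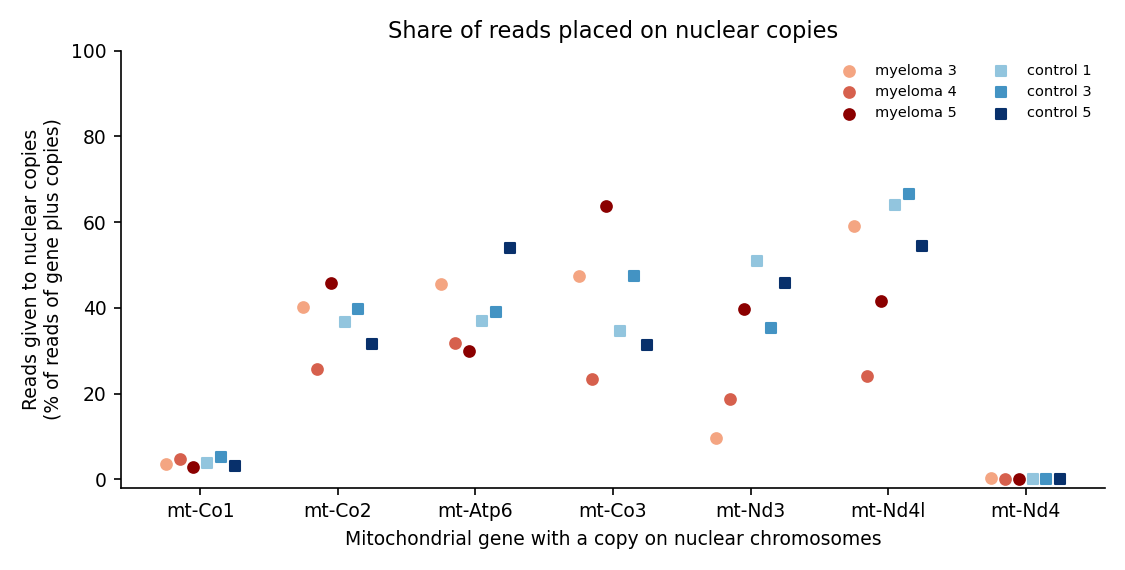
Percent of the reads of gene plus nuclear copies that were given to the copies, in each library (3 myeloma as circles, 3 control as squares). The 7 mitochondrial genes shown are those with a copy on chromosome 1. The share scatters widely within both groups for mt-Co2, mt-Atp6, mt-Co3, mt-Nd3 and mt-Nd4l and stays low for mt-Co1 and mt-Nd4.

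Messenger RNA of the mitochondrial genome took a larger part of every myeloma library than of any control library, and 1 library carries most of the difference. The 13 messenger genes held 2.73%, 3.24% and 8.09% of the expected counts in myeloma replicates 3, 4 and 5, against 2.41%, 2.38% and 2.11% in control replicates 1, 3 and 5. The groups do not overlap, and myeloma replicate 5 stands far above the other 5 libraries. The means were 4.69% ± 2.96 in myeloma and 2.30% ± 0.166 in control libraries (SD, n = 3 each), a ratio of 2.04, and the ratio was 1.30 without myeloma replicate 5. With the nuclear copies added the messenger shares were 3.29%, 3.66% and 9.74% in the myeloma libraries, against 2.77%, 2.85% and 2.45% in the control libraries. No test was applied to these sums, since they run over members chosen with results known.

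The ribosomal RNAs held 0.0913%, 0.0980% and 0.148% of the myeloma libraries, against 0.0830%, 0.119% and 0.0998% of the control libraries. These groups overlap. The ratio of the means was 1.12, and 0.942 without myeloma replicate 5. As a part of all mitochondrial reads the ribosomal RNAs made up 3.23%, 2.93% and 1.80% in the myeloma libraries, against 3.33%, 4.74% and 4.52% in the control libraries, which do not overlap but come within a small margin of each other. Whether the libraries were selected for poly(A) tails or depleted of ribosomal RNA is not stated in these sources.

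Transfer RNAs were not measured by these libraries. The 22 genes are 59 to 75 bases long, and each has an effective length of 0 in every table, so no level is estimated for them. A total of 21 of the 22 are listed at 0 in all 6 libraries. The exception is mt-Ts1, a serine transfer RNA, with 1 read in control replicate 5 and 0 in the other libraries. It is shown with the shortest one, mt-Ts2, also for serine, at chrM:6870-6938 (minus strand) and chrM:11613-11671 (plus strand).

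mt-Ts1: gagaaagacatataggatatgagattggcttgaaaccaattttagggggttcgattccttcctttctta

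mt-Ts2: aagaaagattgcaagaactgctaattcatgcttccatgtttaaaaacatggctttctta

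**Figure D2:**
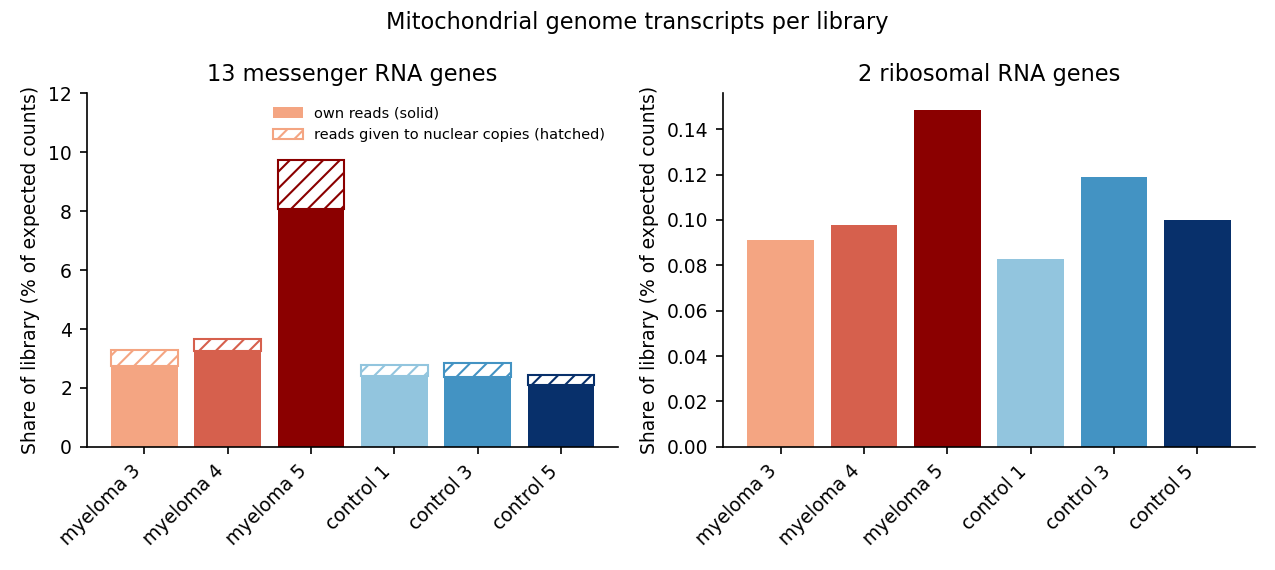
Share of each library's expected counts, in percent, held by the 13 messenger RNA genes (left, own reads solid and reads of nuclear copies hatched) and the 2 ribosomal RNA genes (right), for 3 myeloma and 3 control libraries. Messenger RNA is highest in myeloma replicate 5 at 8.09% of own reads, and the ribosomal RNA of the groups overlaps.

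Total expected counts ran from 10240620 to 12008165 in the myeloma libraries and from 11688282 to 13314631 in the control libraries, so depth is alike. Summed markers of T cells (6 genes) were 3431 to 3659 reads per 1e+06 library reads (CPM) in myeloma and 3378 to 4065 CPM in control libraries, with 1 of 6 called higher and 0 lower in myeloma. Macrophage markers (6 genes) had a sum of 42.8, 82.8 and 314 CPM across the 3 myeloma libraries, against 27.0 to 64.1 CPM in controls, so they too peaked in myeloma replicate 5, with 1 of 6 called higher. Plasma cell markers summed to 226 to 449 CPM in myeloma libraries, again highest in replicate 5, against 110 to 175 CPM in controls, with 2 of 5 tested called higher. Erythroid markers summed to 3781 to 4691 CPM in myeloma, against 6984 to 14672 CPM in control libraries, with 5 of 6 called lower. B cell markers summed to 25.8 to 61.7 CPM in myeloma and 41.1 to 257 CPM in control libraries, with 2 of 5 called lower. Neutrophil markers summed to 120 to 411 CPM in myeloma and 56.5 to 171 CPM in control libraries, and natural killer markers to 1.8 to 2.9 CPM in myeloma and 2.2 to 3.5 CPM in control libraries, with 0 of 6 and 0 of 1 tested called. No marker was at 0 in every library. The part of these cells in the mitochondrial values was not tested; with immunoglobulin and haemoglobin genes left out of the library total, all members held 2.84%, 3.37% and 8.31% of myeloma and 2.51%, 2.54% and 2.23% of control libraries. In bulk samples, fewer cells of a type and less RNA per cell cannot be told apart.

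Gene by gene, 3 of the 15 members with enough reads to test (13 messenger and 2 ribosomal; none of the 22 transfer RNA genes) passed the test across all genes, and all 3 were higher in myeloma: mt-Co2, mt-Co3 and mt-Nd3. None was lower. The quasi-likelihood test of edgeR, adjusted by Benjamini and Hochberg's method over 13235 genes at a threshold of 0.05, called 6.33% of all genes higher and 4.69% lower. At an unadjusted p under 0.05, 12 members were higher and 0 lower, beside 2019 higher and 1679 lower of all 13235 genes. The log2 fold change, myeloma over control, was positive for 14 of 15 members, with a median of 1.08 against 0.02 over all genes tested. Without myeloma replicate 5 the median was 0.43 and 6 members were called higher (mt-Nd1, mt-Co1, mt-Co2, mt-Atp8, mt-Co3 and mt-Nd3), beside 6.15% of all genes. The call count depended on single libraries. Leaving out myeloma replicate 3 gave 4 calls, beside 3.3% of all genes, and leaving out myeloma replicate 4 gave 1, beside 2.89%. Leaving out control replicate 1 gave 1 (4.71%), leaving out control replicate 3 gave 1 (2.42%), and leaving out control replicate 5 gave 0 (3.24%). Without control replicate 5, 8 members were higher at an unadjusted p under 0.05, beside 1604 of all 13745 genes. It was 0 with robust dispersion (6.45%), 2 with DESeq2 (7.27%) and 14 with no filter on low counts (5.03%). With robust dispersion 5 members were higher at an unadjusted p under 0.05, beside 1968 of all 13235 genes. All these p-values measure only the spread between these libraries.

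In CPM of own reads, 9 of the 15 members lay higher in all 3 myeloma libraries than in any control library, and 0 lower. Over all genes tested, 12.4% lay higher and 21.8% lower in that way. The 9 were mt-Rnr1 and 8 of the 13 messenger genes, and all 13 messenger genes were highest in myeloma replicate 5.

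**Figure D3:**
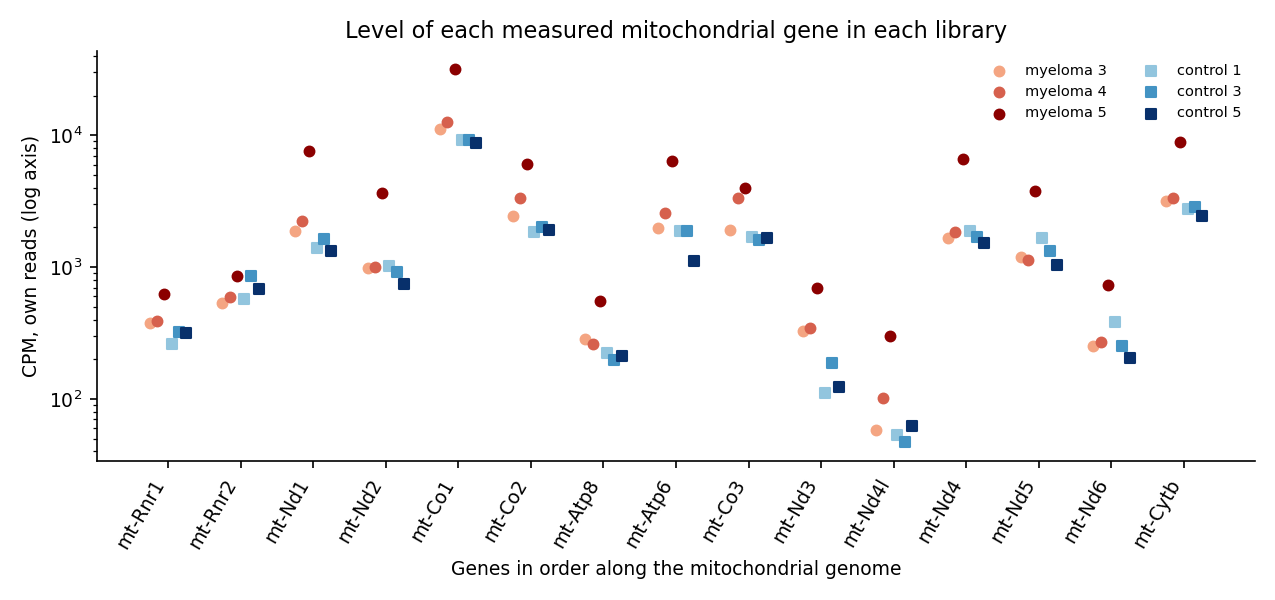
CPM of own reads on a log axis for the 15 mitochondrial genes tested, in order along the genome, in 3 myeloma libraries (circles) and 3 control libraries (squares). Myeloma replicate 5 is the highest library for all 13 messenger genes, and for mt-Co1 it reaches 31638 CPM.

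Complex IV, the last step of the chain, has 3 subunits encoded here, and these gave most of the mitochondrial reads. The catalytic subunit gene mt-Co1 had 11195, 12677 and 31638 CPM in myeloma replicates 3, 4 and 5, against 9148, 9245 and 8714 CPM in control replicates 1, 3 and 5. All myeloma libraries were above all control libraries, yet the adjusted p was 0.0756 for a log2 difference of 1.12 (SE 0.35). Without myeloma replicate 5 it was 0.45 with an adjusted p of 0.0224: a smaller difference, and past the threshold.

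The electron-accepting subunit gene mt-Co2 had 2442, 3341 and 6083 CPM in the myeloma libraries, against 1862, 2013 and 1909 CPM in the control libraries. It rose by 1.12 on the log2 scale (SE 0.29, adjusted p = 0.0409), and by 0.63 without myeloma replicate 5. With the reads of its copy added the log2 fold change was 1.21 with an adjusted p of 0.0586, so the call was lost.

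The third subunit gene, mt-Co3, had 1912, 3322 and 3950 CPM in the myeloma libraries, against 1686, 1595 and 1665 CPM in the control libraries. It rose by 0.97 (SE 0.23, adjusted p = 0.0296), and by 0.72 without myeloma replicate 5. Gene plus copy gave 3639, 4339 and 10937 CPM in the myeloma libraries, against 2574, 3033 and 2426 CPM in the control libraries, with a log2 fold change of 1.32 and an adjusted p of 0.0531. The groups do not overlap in either count.

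Complex I, the entry point for electrons from NADH, has 7 subunits encoded here, and mt-Nd3 was the only one called with all libraries. It had 325, 345 and 695 CPM in the myeloma libraries, against 112, 188 and 124 CPM in the control libraries. It rose by 1.77 (SE 0.32, adjusted p = 0.0116), and by 1.29 without myeloma replicate 5. On own reads this was the largest log2 fold change among the members; with copies added that of mt-Nd1, 1.51, was larger. With its copy, whose share of reads was lower in myeloma replicates 3 and 4 than in any control library, mt-Nd3 had 360, 424 and 1151 CPM in the myeloma libraries, against 228, 291 and 228 CPM in the control libraries. That gave a log2 fold change of 1.46 with an adjusted p of 0.0471, and mt-Nd3 was then the only member called, beside 6.34% of all genes. Without myeloma replicate 5 and with copies added, 7 members were called higher, beside 6.21% of all genes.

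The first complex I gene on the circle, mt-Nd1, had 1865, 2223 and 7599 CPM in the myeloma libraries, against 1394, 1632 and 1328 CPM in the control libraries. The groups do not overlap; the log2 difference was 1.51 (SE 0.47, adjusted p = 0.0736), and 0.54 with an adjusted p of 0.0307 without myeloma replicate 5. The short gene mt-Nd4l had 58.5, 102 and 302 CPM in the myeloma libraries, against 53.0, 46.8 and 62.0 CPM in the control libraries. Its log2 fold change was 1.61 (adjusted p = 0.0730) on own reads and 0.62 (adjusted p = 0.0913) without myeloma replicate 5. With its copy added it was 1.001 (adjusted p = 0.192), and 0.03 (adjusted p = 0.874) without that library. The groups overlap in both counts.

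In CPM over library totals, mt-Nd2, mt-Nd4 and mt-Nd5, also of complex I, lay above the control range in myeloma replicate 5 alone. The gene mt-Nd2 had 982, 995 and 3660 CPM in the myeloma libraries, against 1028, 923 and 740 CPM in the control libraries. The gene mt-Nd4 had 1666, 1848 and 6622 CPM in the myeloma libraries, against 1866, 1704 and 1527 CPM in the control libraries. The gene mt-Nd5, far along the circle, had 1187, 1132 and 3776 CPM in the myeloma libraries, against 1665, 1321 and 1035 CPM in the control libraries. For all of these the other 2 myeloma libraries lay within the control range. With TMM-scaled library sizes, as in the test, all 3 myeloma libraries lay above all control libraries for mt-Nd2. The log2 fold changes of mt-Nd2, mt-Nd4 and mt-Nd5 were 1.16, 1.08 and 0.69 with adjusted p of 0.145, 0.171 and 0.341, and 0.19, 0.10 and -0.16 without myeloma replicate 5, so that the sign of mt-Nd5 turned.

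The gene mt-Nd6 is the only messenger gene on the minus strand. It had 250, 271 and 730 CPM in the myeloma libraries, against 383, 250 and 205 CPM in the control libraries. The groups overlap, with a log2 fold change of 0.67 (adjusted p = 0.321), and -0.05 without myeloma replicate 5. The library kit does not mark strand, and mt-Nd6 overlaps mt-Nd5 by 14 bases and lies opposite the plus-strand precursor, so reads from both strands cannot be told apart here.

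Complex III has 1 subunit gene here, mt-Cytb, for cytochrome b. It had 3200, 3352 and 8963 CPM in the myeloma libraries, against 2760, 2857 and 2446 CPM in the control libraries, a log2 difference of 1.03 (SE 0.36, adjusted p = 0.103). The groups do not overlap, and without myeloma replicate 5 the difference was 0.33 (adjusted p = 0.0711).

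Complex V has 2, mt-Atp6 and mt-Atp8, both of the membrane part of the ATP synthase. The first had 1964, 2578 and 6362 CPM in the myeloma libraries, against 1881, 1869 and 1116 CPM in the control libraries, a log2 fold change of 1.25 (adjusted p = 0.0853). It was 0.53 (adjusted p = 0.152) without myeloma replicate 5, and 1.04 (adjusted p = 0.0769) with all libraries and the reads of its copy added. The gene mt-Atp8 had 286, 259 and 549 CPM in the myeloma libraries, against 225, 196 and 210 CPM in the control libraries, a log2 fold change of 0.88 (adjusted p = 0.0604), and 0.43 (adjusted p = 0.0229) without myeloma replicate 5. The groups do not overlap for either gene. The end of mt-Atp8 is also the start of mt-Atp6, an overlap of 43 bases in capitals in the full gene at chrM:7766-7969 (plus strand), so reads there fit both.

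mt-Atp8: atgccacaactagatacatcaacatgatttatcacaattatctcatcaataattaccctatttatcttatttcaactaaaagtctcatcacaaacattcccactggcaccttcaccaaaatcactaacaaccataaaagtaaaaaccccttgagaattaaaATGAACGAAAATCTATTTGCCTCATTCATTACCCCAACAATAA

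The 2 ribosomal RNA genes, next to each other near the start of the circle, gave different values. The small-subunit gene mt-Rnr1 had 378, 390 and 626 CPM in the myeloma libraries, against 260, 323 and 315 CPM in the control libraries. The groups do not overlap, and the log2 difference was 0.71 (SE 0.20, adjusted p = 0.0548), and 0.41 without myeloma replicate 5. The large-subunit gene mt-Rnr2 had 535, 590 and 857 CPM in the myeloma libraries, against 570, 864 and 683 CPM in the control libraries. These overlap, and the log2 difference was -0.02 (SE 0.21, adjusted p = 0.963). Reads of mt-Rnr1 per read of mt-Rnr2 were 0.706, 0.661 and 0.731 in the myeloma libraries, against 0.455, 0.375 and 0.461 in the control libraries. Means were 0.699 ± 0.0354 in myeloma libraries, against 0.430 ± 0.0485 in control libraries (SD, n = 3 each). The ratio is given without a test because it was chosen after its values were seen.

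How the messenger reads divide among the genes shifted less than their total. With copies added, mt-Co1 made up 35.3%, 36.4% and 33.5% of mitochondrial messenger reads in the myeloma libraries, against 34.3%, 34.2% and 36.7% in the control libraries. Complex IV as a whole held 58.8%, 60.6% and 56.2% in the myeloma libraries, against 54.2%, 56.6% and 58.0% in the control libraries. Complex I held 19.6%, 19.2% and 24.7% in the myeloma libraries, against 24.2%, 21.96% and 21.2% in the control libraries. The groups overlap for all of these, and myeloma replicate 5 differs from the other myeloma libraries in having more complex I. Relative to the mean of the other myeloma libraries, myeloma replicate 5 had 3.72 times as much mt-Nd1, 3.70 times mt-Nd2 and 3.76 times mt-Nd4, but 2.02 times mt-Atp8, 1.63 times mt-Rnr1 and 1.52 times mt-Rnr2. These folds were of CPM with copies added.

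With copies added, the messenger genes whose part of these reads did not overlap between groups were mt-Co3 and mt-Nd3, higher in myeloma, and mt-Nd5, mt-Nd6 and mt-Cytb, lower. On own reads alone mt-Nd3, mt-Nd5 and mt-Nd6 still did not overlap, whereas mt-Co3 and mt-Cytb did. These are descriptions with no test, and this scale has no share over all genes to set beside them. For mt-Nd5 it was 3.61%, 3.10% and 3.88% in the myeloma libraries, against 6.01%, 4.63% and 4.22% in the control libraries. When the members were scaled to the summed mitochondrial messenger reads, edgeR called mt-Nd3 higher and mt-Rnr2 lower. The log2 differences were 0.76 (adjusted p = 0.0347) and -0.93 (adjusted p = 0.0334). With copies added on that scale mt-Rnr2 was still lower (-0.94, adjusted p = 0.0327), and mt-Nd3 was not called (0.31, adjusted p = 0.0692). All other genes kept the TMM scale in these fits, so their shares are not on the scale of the members. Those shares were 6.34% higher and 4.72% lower, and 6.4% higher and 4.8% lower with copies added. The messenger-sum scale makes a change of 1 member relative to the other members, so it says nothing of the total.

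**Figure D4:**
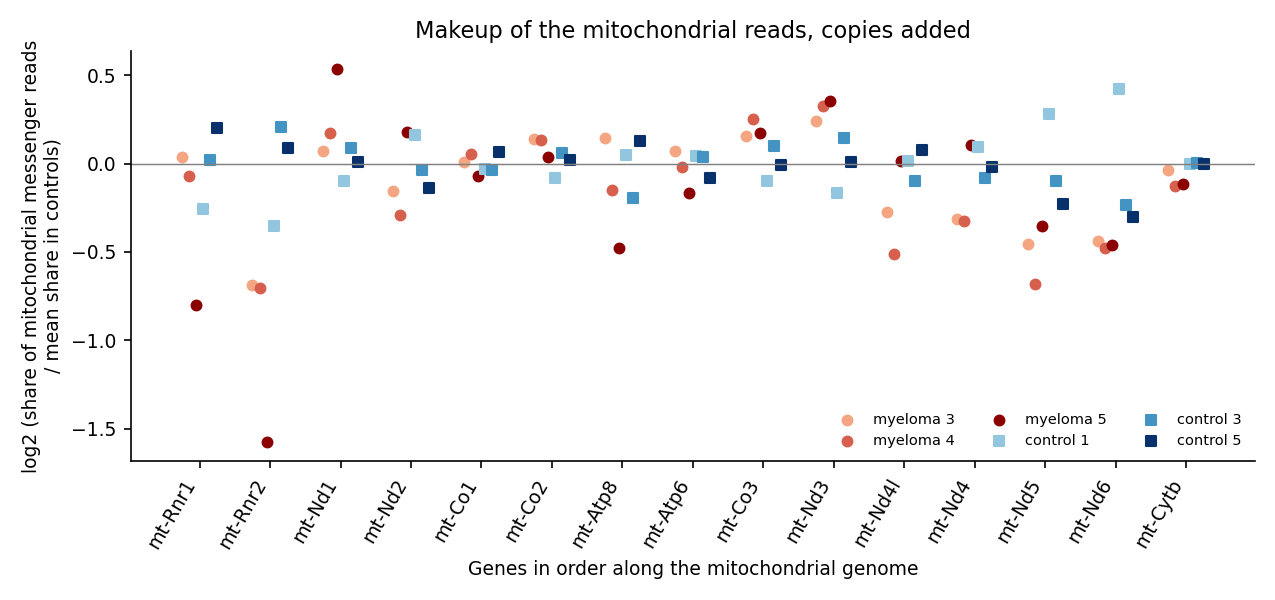
Log2 of each gene's share of mitochondrial messenger reads, copies added, over its mean share in control libraries, for 3 myeloma libraries (circles) and 3 control libraries (squares). All 3 myeloma libraries lie below all control libraries for mt-Rnr2, mt-Nd5, mt-Nd6 and mt-Cytb and above them for mt-Co3 and mt-Nd3.

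Levels of different genes were compared per kilobase of gene, with copies added. The gene mt-Co1 was highest in all 6 libraries, at 7514, 8616 and 21087 CPM per kilobase in the myeloma libraries, against 6148, 6313 and 5826 in the control libraries. After it came mt-Co2, mt-Atp6 and mt-Co3. In this order mt-Co2 was above mt-Atp6, and mt-Atp6 above mt-Co3, in 5 of 6 libraries, so these neighbours are not firmly ordered, whereas mt-Co3 was above the next gene, mt-Cytb, in all 6. Below followed mt-Nd1, mt-Nd4, mt-Atp8, mt-Nd2, mt-Nd3 and mt-Nd5, of which mt-Nd2 was above mt-Nd3 in only 4 of 6 libraries. The lowest messenger genes were mt-Nd4l and mt-Nd6, with mt-Nd4l the higher in 2 of 6. The ribosomal RNAs, per kilobase, lay below most messenger genes, with mt-Rnr2 at 338, 373 and 541 in the myeloma libraries, against 360, 546 and 432 in the control libraries.

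Nuclear genes whose proteins act on the mitochondrial genome were called in small numbers and in both directions. The counts of these lists are near or below the share over all genes, of which 6.33% were called higher and 4.69% lower. Of 12 genes for mitochondrial transcription, 1 was called higher, Mterf1a (a termination factor, 0.58, adjusted p = 0.0413), and 1 lower, Tfb2m (the factor that opens the promoter for the polymerase, -0.44, adjusted p = 0.0427). The mitochondrial RNA polymerase gene Polrmt (-0.13), the DNA packaging factor gene Tfam (0.27) and the elongation factor gene Tefm (0.65) were not called. The median of the list was 0.26.

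For RNA processing and decay 3 of 36 were called higher and 0 lower, with a median of 0.03, beside 6.33% and 4.69% of all genes. These were Slirp (an RNA-binding partner of LRPPRC that stabilizes mitochondrial messenger RNA, 0.85, adjusted p = 0.00689), Pnpt1 (the mitochondrial polynucleotide phosphorylase, 0.57, adjusted p = 0.00746) and Nsun4 (a ribosomal RNA methyltransferase, 0.58, adjusted p = 0.0209). Slirp had 24.2, 21.9 and 21.1 CPM in the myeloma libraries, against 13.3, 13.1 and 12.7 CPM in the control libraries. It was not highest in myeloma replicate 5, unlike the mitochondrial messenger RNAs. Its partner Lrpprc (-0.15), the poly(A) polymerase gene Mtpap (0.15) and the helicase gene Supv3l1 (0.09) were not called.

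For mitochondrial DNA replication and nucleotide supply edgeR called 0 of 17 in either direction. With an unadjusted p under 0.05, 0 of these were higher and 3 lower, beside 2019 higher and 1679 lower of all 13235 genes. Polg (the DNA polymerase) stood at -0.14 and Twnk (the helicase) at -0.37. For mitochondrial aminoacyl-tRNA ligases edgeR called 0 of 23, and 0 were past an unadjusted p of 0.05. The leucine ligase gene Lars2 had 1683, 1677 and 489 CPM in the myeloma libraries, against 696, 1196 and 569 CPM in the control libraries. It was thus lowest in the library with the most mitochondrial messenger RNA. Without that library it was called higher (1.08, adjusted p = 0.0390). The level of Lars2 stood far above the other ligase genes, for example Tars2, with 69.2 to 139 CPM across all libraries. In the myeloma libraries it was lowest in replicate 5, as was Gm26917 (1509, 1403 and 457 CPM). Gm26917 is from the list of transcripts without a poly(A) tail or overlapping nuclear ribosomal RNA. Whether the reads of Lars2 come from the ligase messenger RNA was not tested. For the biogenesis regulators edgeR called 0 of 9. With an unadjusted p under 0.05, 2 of these were higher and 1 lower, beside the same 2019 and 1679 of all genes. Nrf1 (-0.23), Gabpa (-0.18) and Ppargc1b (-0.62) were not called.

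Of 74 nuclear subunits of the respiratory chain, 38 were called higher in myeloma and 0 lower, beside 6.33% and 4.69% of all genes. For complex I, 19 of 36 were called higher and 0 lower (median 0.45), for complex III 3 of 9 (median 0.33), for complex IV 9 of 12 (median 0.52) and for complex V 7 of 17 (median 0.39). Without myeloma replicate 5 the counts were 22, 4, 10 and 10, beside 6.15% of all genes called higher. Over all the nuclear lists the count called higher was 47 of 187, beside 6.33% of all genes. It fell to 19 without myeloma replicate 3 (3.3% of all genes) and 17 without myeloma replicate 4 (2.89%). Without control replicates 1, 3 and 5 it was 30, 20 and 22, beside 4.71%, 2.42% and 3.24% of all genes. For example Cox5a, a complex IV subunit, had 55.3, 75.2 and 59.5 CPM in the myeloma libraries, against 31.7, 30.3 and 37.2 CPM in the control libraries (1.01, adjusted p = 0.00304). Ndufb8, a complex I subunit, had 58.2, 64.7 and 62.9 CPM in the myeloma libraries, against 43.8, 42.4 and 38.3 CPM in the control libraries (0.65, adjusted p = 0.00557). Uqcrq, of complex III, rose by 0.75 and Atp5l, of complex V, by 0.67. In CPM, among the 38 called subunits myeloma replicate 5 was the lowest myeloma library for 34, between the others for 3 (Cox5a and Ndufb8 are of these) and the highest for 1, with a median of 0.864 times the mean of the other myeloma libraries. Among all 74 tested subunits it was the lowest for 60, between the others for 9 and the highest for 5, with a median of 0.864. How often that library was lowest over all genes was not counted, so this may not be particular to the subunits. In CPM with copies added, the mitochondrial messenger genes in myeloma replicate 5 stood at 2.02 to 3.76 times the mean of the other myeloma libraries. On own reads the lowest was mt-Co3 at 1.51 times and the highest mt-Nd4 at 3.77 times.

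Of 9 genes listed for the release, decay or sensing of mitochondrial double-stranded RNA or DNA, 4 were called higher and 0 lower. The median was 0.47, and over all genes 6.33% were called higher and 4.69% lower. Zbp1, a nucleic acid sensor, had 380, 310 and 406 CPM in the myeloma libraries, against 96.9, 83.9 and 125 CPM in the control libraries, and rose by 1.92. Ifih1, which encodes the double-stranded RNA sensor MDA5, rose by 1.74. Both genes are also induced by interferon. The other called genes are not sensors: Pnpt1, described above, degrades RNA, and Bak1 (0.47) encodes a pore protein of the outer membrane.

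Of 10 tested transcripts without a poly(A) tail or overlapping nuclear ribosomal RNA, 2 were called higher and 0 lower (6.33% and 4.69% of all genes). These were the gene models Gm26917, which had 1509, 1403 and 457 CPM in the myeloma libraries, against 203, 363 and 246 CPM in the control libraries (2.11), and Gm42418 (1.11). Whether these 2 gene models share reads was not tested. Both were lower in myeloma replicate 5 than in the other myeloma libraries. Across the 10, myeloma replicate 5 was the lowest myeloma library for 3, the highest for 3 (Rpph1, Hist1h1c and Hist1h4i) and between the others for 4, so the list has no single direction in that library. Malat1, a nuclear long non-coding RNA outside that list, had 2113, 1998 and 1394 CPM in the myeloma libraries, against 1916, 2649 and 2243 CPM in the control libraries, and was not called (-0.24). It was lowest in myeloma replicate 5. The part of these library differences in the mitochondrial values was not tested.

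**Figure D5:**
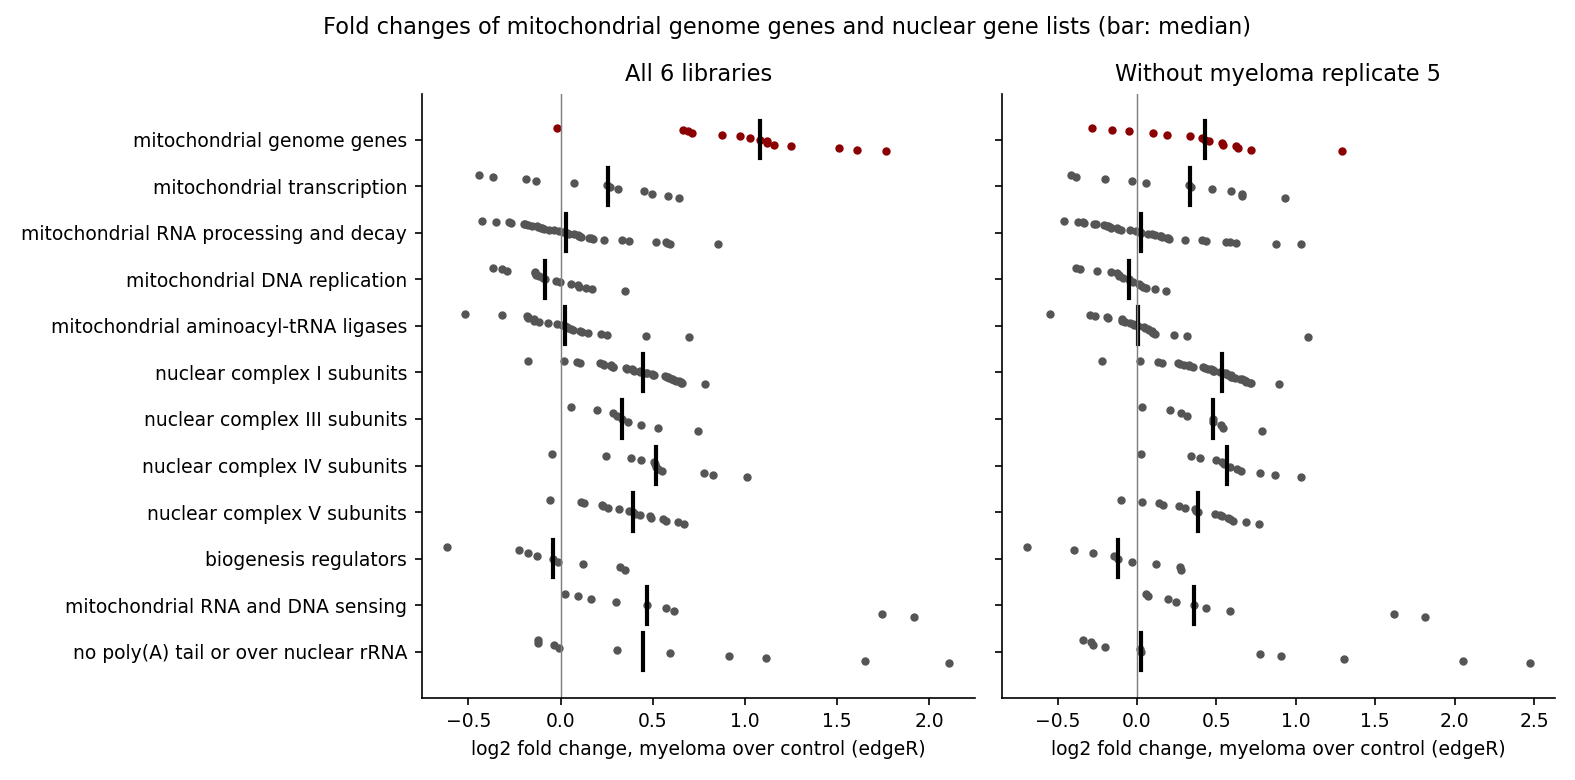
Log2 fold change, myeloma over control, from edgeR for the mitochondrial genome genes and 11 lists of nuclear genes with all 6 libraries (left) and without myeloma replicate 5 (right), each point a gene and each bar a list's median. The median of the mitochondrial genome genes is 1.08 with all libraries and 0.43 without that library, while that of nuclear complex I subunits is 0.45 and 0.54.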

How the data were processed

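The labels' protocols name total RNA and the NEBNext Ultra kit for RNA libraries. Picard, STAR, RSEM, DESeq2 and the build mm10 are named in the submitters' processing notes, and no versions are given. The authors' deposited tables hold expected counts, which are read numbers per gene estimated by RSEM without normalization, and which can be fractional. They also hold TPM and FPKM scaled by the authors. TPM served only as an alternative for the share of a library and FPKM was not used. The deposited lengths and effective lengths were read as such.

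CPM and shares are expected counts over the library total. For tests, expected counts were rounded. In edgeR 4.0.16 under R 4.3.3, genes passed filterByExpr (at least 10 counts, in total 15), TMM set the scale, and glmQLFit with glmQLFTest compared myeloma with control. Benjamini-Hochberg adjustment ran over the 13235 genes, at a threshold of 0.05. The SE is the log2 fold change over the square root of F. Of 47643 gene identifiers, 47224 matched the reference names. Positions come from GENCODE M21 on GRCm38, counted from 1. Nuclear copies were found with blastn 2.17.0. The design text gives 3 mice for each group, and no label says which mouse or day a replicate number stands for.

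Members and lists were chosen with earlier results of these data known. The text names every mt- gene, up to 4 called genes with the smallest p per list and direction, and a set of regulators named whether called or not. Alternatives were scaling by upper quartiles, by RLE or by library size only, scaling without or to mitochondrial genes, other filters, DESeq2 1.42.0, limma-voom 3.58.1, robust dispersion, the replicate block and leaving out each library. Adding the reads of nuclear copies was chosen after seeing the data. The test was tested on simulated data.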

Additional observations from a re-analysis of the deposited data

How the results depend on the processing

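The log2 ratio of library share ran from 0.36 to 1.27 for all members, 0.38 to 1.30 for messenger and -0.0865 to 0.30 for ribosomal genes when each library was left out in turn, with the lowest value of each without myeloma replicate 5. Members called higher numbered 3 with all libraries and 0 to 6 when a library was left out. They numbered 14 with no filter, where log2 fold changes hardly moved, and 0 with robust dispersion. At an unadjusted p under 0.05 robust dispersion gave 5 members higher, beside 1968 of all 13235 genes. With DESeq2 the members called higher numbered 2, and 1 when scaled to the mitochondrial messenger sum, where 1 was lower. With nuclear copies added they numbered 1, 7 without myeloma replicate 5, and 0 on the messenger-sum scale, where 1 was lower. No label says whether the replicate numbers pair the libraries. The correlations of deviations were 0.0295 and 0.0974 for the 2 shared numbers, too few to settle it. In the replicate block only replicates 3 and 5 stand in both groups, so few libraries inform that comparison. With it 0 members, 8 nuclear list genes higher and 0 lower were called, as were 362 of all genes higher. At an unadjusted p under 0.05 the block gave 10 members higher, beside 1540 of all 13235 genes. Nuclear list genes called higher numbered 47 of 187 with all libraries, beside 6.33% of all genes. With 1 library left out they numbered 17 to 56, while the share of all genes ran from 2.42% to 6.15%. Those called lower numbered 1 with all libraries, 0 whichever library was left out, 2 with library sizes alone, 2 with no filter and 0 with limma-voom. Library sizes alone called 633 of all genes higher and 1001 lower, against 838 and 621 with TMM. Log2 fold changes turned negative on the messenger-sum scale for mt-Rnr1 (-0.23), mt-Nd2 (-0.059), mt-Atp8 (-0.13), mt-Nd4 (-0.15), mt-Nd5 (-0.47), mt-Nd6 (-0.45) and mt-Cytb (-0.082). With copies added as well they were -0.23, -0.074, -0.14, -0.16, -0.49, -0.46 and -0.093, and also negative for mt-Co1 (-0.0013), mt-Atp6 (-0.036) and mt-Nd4l (-0.24). Leaving out each library gave -0.16 to 0.98 for mt-Nd5, -0.047 to 0.93 for mt-Nd6 and -0.28 to 0.17 for mt-Rnr2. The first 2 were negative only without myeloma replicate 5 (-0.16 and -0.048 with copies added), and mt-Rnr2 was positive without control replicate 3 (0.17) and without either myeloma replicate 3 (0.10) or 4 (0.06). The cause of these moves was not tested beyond what each setting changes. Transfer RNA genes have an effective length of 0 in the deposited tables.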
